A study of Mus musculus with 14 samples.

Results

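The HoxA cluster and the genes at its posterior end were followed in mouse forelimb bud cells. They comprised 8 *Hoxa* genes (*Hoxa3*, *Hoxa4*, *Hoxa5*, *Hoxa7*, *Hoxa9*, *Hoxa10*, *Hoxa11* and *Hoxa13*), the long non-coding RNA *Hottip* and the homeobox gene *Evx1*. These 10 members were taken by symbol from a table of 24454 genes, irrespective of their levels. All 10 were among the 15125 genes that passed a filter on low counts, *Hottip* only through the 2 populations in which it is high. The table holds 14 RNA-seq libraries of 5 FACS-sorted populations, described here in the names of the sample labels. S9- and S9+ denote cells without and with the EGFP of a *Sox9* IRES-EGFP allele that all embryos carried, on a mixed Swiss Albino background with both sexes pooled. S9-JAG1+ LMPs (limb bud mesenchymal progenitors sorted by surface JAG1), S9-Pahi LMPs (high surface PDGFRα), S9+Pahi OCPs (osteo-chondrogenic progenitors) and S9-SCA-1+ cells came from pooled forelimb buds of E10.5 embryos. S9+COL2+ CBs, chondroblasts, came from pooled buds of E11.5 embryos, so that stage and population cannot be told apart in any comparison with them. S9-SCA-1+ cells have 2 libraries and every other population has 3. No mutant or treated embryos are among these groups, and cells carrying surface markers of blood, endothelium and ectoderm had been gated out.

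*Hox* genes encode homeodomain transcription factors and are switched on in the order in which they lie on the chromosome. In the limb bud, *Hoxa9* and *Hoxa10* are linked to the proximal segment, *Hoxa11* to the forearm and *Hoxa13* to the hand plate. *Hottip* is transcribed away from *Hoxa13* and its RNA is known to bind WDR5 of the MLL histone methyltransferase complex. *Evx1*, a homologue of *Drosophila* even-skipped, flanks the cluster and is expressed in distal posterior limb bud mesenchyme and in the tail bud.

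All members lie on chromosome 6 (GRCm38.p6). The *Hoxa* genes are on the minus strand, from *Hoxa3*, which ends at 52213067, to *Hoxa13* at 52258853 to 52260880. *Hottip* (52262775 to 52267603) and *Evx1* (52313498 to 52318389) are on the plus strand. The start of *Hoxa13* is 1895 bases from that of *Hottip* and 52.6 kb from that of *Evx1*. These 3 neighbours each had their highest mean in S9-JAG1+ LMPs. The 250 bases upstream of each annotated start are therefore shown, from the RefSeq annotation of GRCm38.p6 and read 5′ to 3′. Capitals mark CAATAAA, a posterior Hox-type motif, searched on both strands (the reverse complement is TTTATTG).
Hoxa13, chr6:52260881-52261130, minus strand: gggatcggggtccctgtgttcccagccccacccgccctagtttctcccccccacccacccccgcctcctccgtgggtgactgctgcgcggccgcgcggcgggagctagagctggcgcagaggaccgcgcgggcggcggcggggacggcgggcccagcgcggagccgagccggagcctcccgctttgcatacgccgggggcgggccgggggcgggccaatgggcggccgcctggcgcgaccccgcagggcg
Hottip, chr6:52262525-52262774, plus strand: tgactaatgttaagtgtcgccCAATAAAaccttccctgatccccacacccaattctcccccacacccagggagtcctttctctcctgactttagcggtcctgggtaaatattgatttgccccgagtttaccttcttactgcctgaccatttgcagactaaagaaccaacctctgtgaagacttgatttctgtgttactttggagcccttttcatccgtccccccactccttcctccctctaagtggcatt
Evx1, chr6:52313248-52313497, plus strand: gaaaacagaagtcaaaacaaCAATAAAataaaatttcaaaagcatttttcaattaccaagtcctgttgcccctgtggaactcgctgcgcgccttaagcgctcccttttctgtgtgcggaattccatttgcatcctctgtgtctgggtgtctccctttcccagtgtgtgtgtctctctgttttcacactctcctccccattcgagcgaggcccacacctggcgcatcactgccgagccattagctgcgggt
The *Hoxa13* window is 80% G and C with 35 CpG dinucleotides, which puts its base composition at percentile 98.8 of 32851 windows of this kind (median 52.4% G and C). The *Hottip* window (48.4%, 4 CpG) and the *Evx1* window (49.6%, 10 CpG) lie near the median. CAATAAA occurs once in the *Hottip* window and once in the *Evx1* window, and these letters are not in the *Hoxa13* window. Of all windows, 4.2% hold the motif. Neither GACCACCCA (GLI, 0.225% of windows) nor TGACAG (MEIS, 15.9%) occurs in any of the 3 windows. A match is a description of letters and not of a binding site.

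Total counts per library ran from 20316583 to 29162751, and 3 counts, the limit below which a gene cannot be told from absent, correspond to 0.101 to 0.149 CPM, the count scaled to a library size of 1e+06. The sort was checked on its own transcripts. *Jag1* averaged 296 CPM in S9-JAG1+ LMPs against at most 120 elsewhere, and *Sox9* 437 in OCPs and 536 in CBs against 62.3 or less in the S9- populations. *Col2a1* averaged 1536 CPM in CBs and 989 in OCPs, a difference inside the fold limit used below (OCPs over CBs -0.64 on the log2 scale). *Pdgfra* averaged 442.5 CPM in S9-Pahi LMPs, 718 in OCPs and 864 in CBs, against 247 in S9-JAG1+ LMPs and 34.4 in S9-SCA-1+ cells. *Ly6a*, which encodes SCA-1, reached only 3.23 CPM in S9-SCA-1+ cells. These cells carried the muscle precursor genes *Met* (719 and 660 CPM), *Pax3* (428 and 498) and *Lbx1* (263 and 233), which were at 8.96 CPM or less in every other library. Their summed level of the 4 limb mesenchyme markers was 325 to 419 CPM against 1133 to 2638 in the other populations. Several libraries stood apart. Of the hindlimb genes, *Pitx1* was at 29.4 CPM in OCP replicate 1, 38.2 in S9-Pahi replicate 3 and 23.6 in S9-JAG1+ replicate 1 against 10.4 or less in the other 11. *Hoxc10* was at 8.48, 7.92 and 3.90 CPM in these libraries. It was also at 4.32 CPM in S9-JAG1+ replicate 3 and at 3.95 and 6.02 in the S9-SCA-1+ libraries, with 1.81 or less in the rest. *Tbx4* was highest in the OCP libraries, at 38.4 to 45.2 CPM. The summed level of 10 tail bud markers was 11.6 to 49.3 CPM in S9-JAG1+ LMPs and at most 4.56 elsewhere, highest in replicate 3, the only library with more than 4 counts of *Cdx4*. The blood genes *Hba-x* and *Hbb-bh1* were at 720.0 and 567 CPM in S9-SCA-1+ replicate 3. Within bulk samples, a lower level cannot be separated into fewer expressing cells or less RNA per cell.

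Differences between populations were tested in all 10 pairs with edgeR's quasi-likelihood F test on counts and Benjamini-Hochberg adjustment over the 15125 genes. A call needed an adjusted p no higher than 0.1 together with a log2 difference of 1.2 or more in either direction. The members divided along the chromosome. *Hoxa3*, *Hoxa5*, *Hoxa9* and *Hoxa10* were called in none of the 10 pairs, and *Hoxa4* and *Hoxa7* in 1 each. *Hoxa11* was called in 3 pairs, *Hoxa13* in 8 and *Evx1* in 7. *Hottip* was called in 7 pairs too. All of these but S9-JAG1+ LMPs against CBs were against populations with 10 counts or fewer per library, and those calls follow from the filter.

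**Figure D1:**
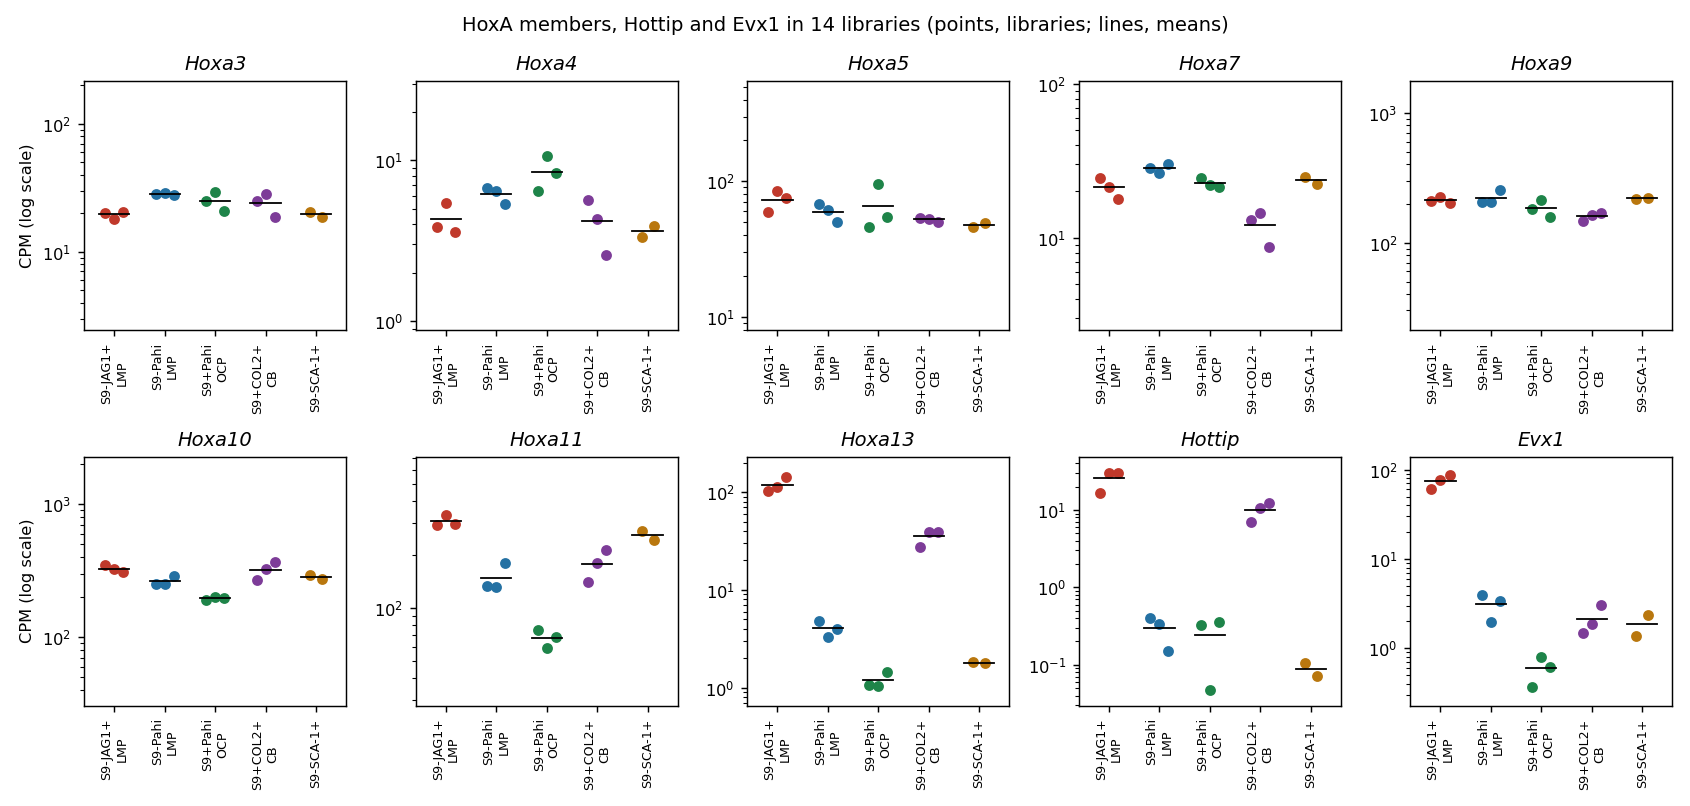
Levels of the 10 members in CPM (log axis) in every library; points are libraries, horizontal lines the means of 3 libraries (2 for S9-SCA-1+). The 3 libraries of S9-JAG1+ LMPs lie above all 11 others for *Hoxa13*, *Hottip* and *Evx1*, while *Hoxa3*, *Hoxa5* and *Hoxa9* stay within a narrow band.

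*Hoxa13*, the most 5′ gene of the cluster and the one tied to the hand plate, had the clearest order. It was at 101, 113 and 144 CPM in the 3 libraries of S9-JAG1+ LMPs and at 27.6, 38.6 and 39.3 CPM in S9+COL2+ CBs. It was at 4.84, 3.31 and 3.94 CPM in S9-Pahi LMPs, at 1.05, 1.05 and 1.45 CPM in S9+Pahi OCPs and at 1.82 and 1.78 CPM in the S9-SCA-1+ libraries. No 2 populations overlapped. The mean in S9-JAG1+ LMPs was 101 times that in OCPs. The step from S9-JAG1+ LMPs to CBs was called (log2 fold change 1.77, SE 0.16, adjusted p = 6.28e-07) and so was the step from CBs down to S9-Pahi LMPs (3.13 lower, adjusted p = 5.88e-08). Between S9-Pahi LMPs and S9-SCA-1+ cells the log2 difference of 1.16 was just under the limit (SE 0.25, adjusted p = 0.00313). S9-SCA-1+ cells and OCPs, at the low end, did not differ beyond the test's limit (0.59, adjusted p = 0.118).

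*Hottip* followed the same order at its top. It was at 16.6, 29.9 and 30.4 CPM in S9-JAG1+ LMPs and at 6.93, 10.54 and 12.2 CPM in CBs. In the remaining 8 libraries it had 1 to 10 counts, which is 0.407 CPM at most. The groups S9-JAG1+ and CB did not overlap, and neither reached down to the other 8 libraries. Both S9-SCA-1+ libraries had 3 counts or fewer, 5 together against 1870 in S9-JAG1+ LMPs and 825 in CBs, while S9-Pahi LMPs had 22 in all and OCPs 19. Scaled to depth, S9-JAG1+ LMPs had 83.6 times the level of S9-Pahi LMPs (95% counting interval 55.1 to 134), 99.6 times that of OCPs (63.6 to 166) and 293 times that of S9-SCA-1+ cells (125 to 902). CBs had 31.7 times the level of S9-Pahi LMPs (20.8 to 50.8), 37.7 times that of OCPs (24.0 to 63.0) and 111 times that of S9-SCA-1+ cells (47.3 to 342). These intervals cover counting error only, and fitted fold changes against so few counts, which rest on the prior count, are not given. *Hottip* entered the tests through S9-JAG1+ LMPs and CBs, so its calls against the other populations follow from the filter and add no support.

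*Evx1* had no settled second place. It was at 60.7, 77.3 and 87.2 CPM in S9-JAG1+ LMPs. It was at 3.90, 1.99 and 3.39 CPM in S9-Pahi LMPs and at 1.48, 1.88 and 3.06 CPM in CBs. It was at 1.36 and 2.39 CPM in the S9-SCA-1+ libraries and at 0.365, 0.808 and 0.615 CPM in OCPs. S9-JAG1+ LMPs lay far above all other libraries, while S9-Pahi LMPs, CBs and S9-SCA-1+ cells overlapped and OCPs lay below them. The tests gave no call between S9-Pahi LMPs and CBs (log2 difference 0.54, SE 0.31, adjusted p = 0.171) or between CBs and S9-SCA-1+ cells (0.18, SE 0.36, adjusted p = 0.696). OCPs were below S9-SCA-1+ cells by 1.66 (adjusted p = 0.00886), a call that was lost without S9-SCA-1+ replicate 3 (log2 fold change -1.21, adjusted p = 0.129).

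*Hoxa11*, the forearm gene, was graded rather than on or off. It was at 293, 336 and 299 CPM in S9-JAG1+ LMPs and at 271 and 243 CPM in S9-SCA-1+ cells. It was at 140.5, 179 and 213 CPM in CBs, at 133, 131 and 180.3 CPM in S9-Pahi LMPs and at 74.9, 59.6 and 68.6 CPM in OCPs. S9-JAG1+ LMPs were above and OCPs below all other libraries, and CBs and S9-Pahi LMPs overlapped. OCPs were lower than S9-JAG1+ LMPs by 2.19 on the log2 scale (SE 0.16, adjusted p = 1.29e-07), and OCPs were also lower than S9-SCA-1+ cells by 1.92 and than CBs by 1.39. S9-JAG1+ LMPs and S9-SCA-1+ cells, neighbours in this order, were not called (0.27, SE 0.17, adjusted p = 0.287). Of the exon bases of *Hoxa11*, 35% are overlapped by the antisense gene *Hoxa11os*. The strand setting of the counting was not given in the sources used here, so reads in the overlap cannot be assigned to one of them.

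*Hoxa10* was at 309 to 346 CPM in S9-JAG1+ LMPs, 270.2 to 367 in CBs, 272 to 295 in S9-SCA-1+ cells, 249 to 288 in S9-Pahi LMPs and 189 to 199 in OCPs. The OCP libraries lay below all others, by 0.74 on the log2 scale against S9-JAG1+ LMPs (SE 0.10, adjusted p = 5.79e-05), a difference inside the fold limit. *Hoxa9* ran from 147 to 255 CPM over the 14 libraries, with a ratio of 1.38 between the highest and lowest population means.

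The genes toward the 3′ end had few calls. *Hoxa5*, linked to axial and lung development, was at 45.8 to 95.6 CPM, and both ends of that range were OCP libraries (45.8, 95.6 and 54.5 CPM). OCP replicate 2 was also the highest library for *Hoxa4*. *Hoxa3*, known for pharyngeal arch development, was at 17.98 to 29.3 CPM with a ratio of 1.44 between population means. *Hoxa4* was at 6.49, 10.6 and 8.35 CPM in OCPs and at 3.36 and 3.92 CPM in S9-SCA-1+ cells, without overlap. This was a call (log2 fold change 1.22, SE 0.30, adjusted p = 0.00553) just past the limit, and it was lost without OCP replicate 2 (1.03) and without S9-SCA-1+ replicate 2 (1.11). *Hoxa7*, which acts in the axial skeleton, was lowest in CBs, at 12.9, 14.6 and 8.68 CPM. In S9-Pahi LMPs it was at 28.2, 26.3 and 30.2 CPM, again without overlap. The difference was called (log2 fold change 1.22, SE 0.16, adjusted p = 4.91e-05) and fell under the fold limit without CB replicate 3 (1.08) and without S9-Pahi replicate 3 (1.17).

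**Figure D2:**
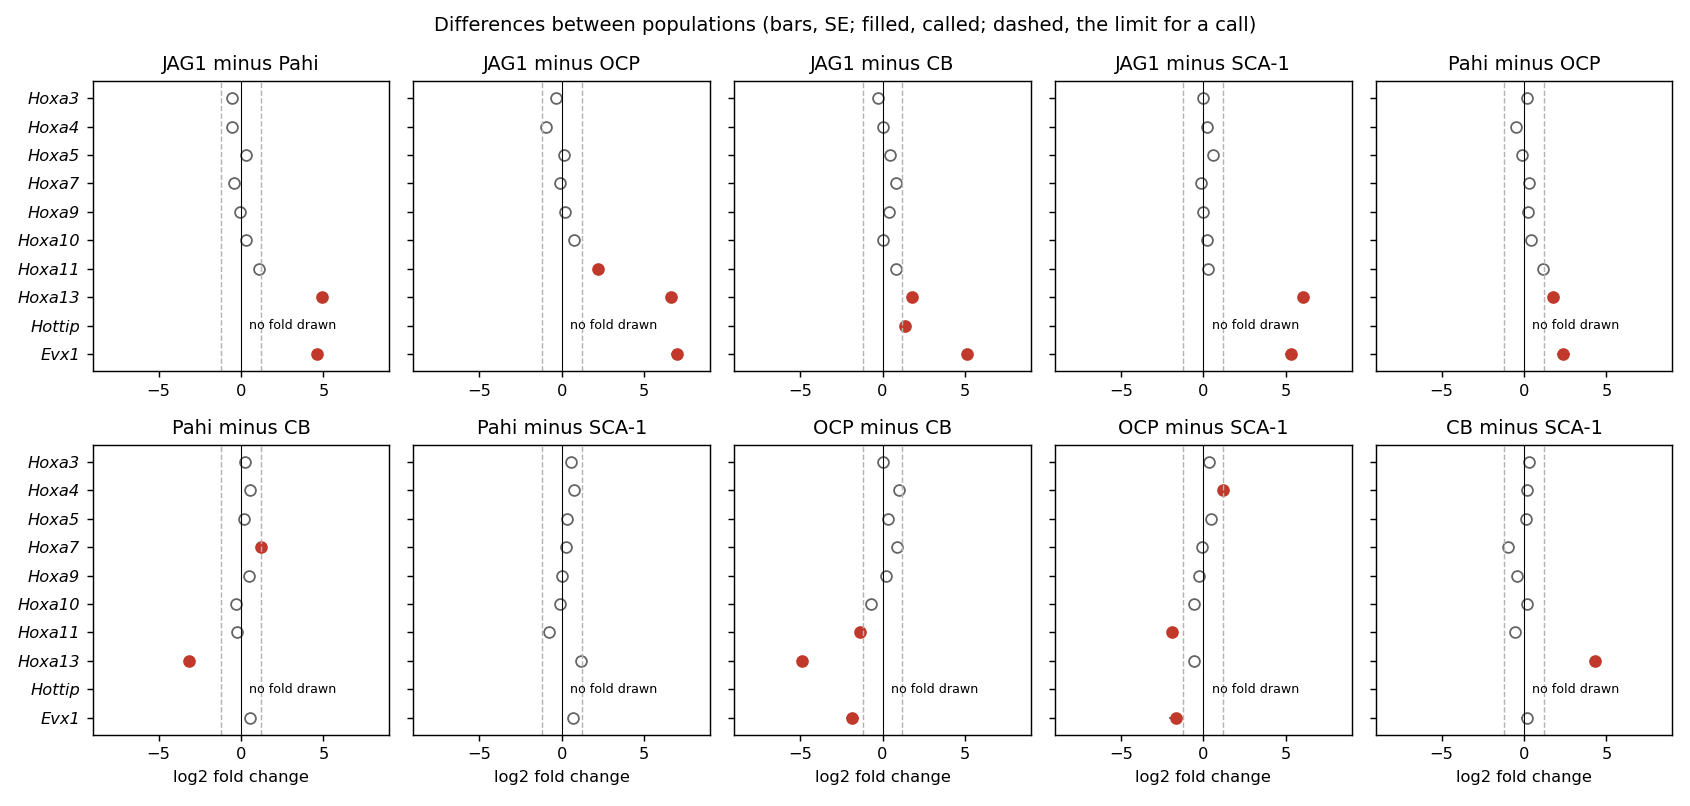
Log2 fold changes of the 10 members in the 10 pairs of populations, first minus second, with SE as bars; filled points were called and dashed lines mark the fold limit of 1.2. *Hoxa3* to *Hoxa10* lie within 1.22 of 0 in all panels, *Hoxa13* and *Evx1* are at 4.89 and 4.61 between S9-JAG1+ and S9-Pahi LMPs, and for *Hottip* a fold is drawn only between S9-JAG1+ LMPs and CBs, the populations with more than 10 counts per library.

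The counts of members called were read against all genes. Each count that includes *Hottip*, other than that between S9-JAG1+ LMPs and CBs, holds 1 call that adds no support, because of the filter. Between S9-JAG1+ and S9-Pahi LMPs, both sorted as EGFP-negative progenitors, 3 of 10 members were called, all higher in S9-JAG1+ LMPs, where 7.00% of tested genes were called in either direction and 2.58% in that one. They were *Hoxa13* (log2 fold change 4.89, SE 0.19, adjusted p = 1.95e-09), *Evx1* (4.61, SE 0.29, adjusted p = 1.01e-07) and *Hottip*, given above by its counts. The median over the members was 0.30 and over all genes 0.00. *Hoxa11* was higher by 1.06 (adjusted p = 1.61e-04), inside the fold limit, and it passed that limit without S9-Pahi replicate 3 (1.23).

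Against OCPs, 4 members were higher in S9-JAG1+ LMPs (12.5% of genes called, 3.46% in that direction), with a median of 0.47 over the members and -0.03 over all genes. Besides *Hoxa11* these were *Hoxa13* (6.64, SE 0.22, adjusted p = 4.00e-10), *Evx1* (6.98, SE 0.35) and *Hottip*. *Evx1* was thus 127-fold higher. Against CBs, 3 members were higher in S9-JAG1+ LMPs (19.4% called, 4.17% in that direction), and they differed in size. *Hoxa13* was 3.40-fold and *Hottip* 2.60-fold higher, whereas *Evx1* was 35.4-fold higher (log2 fold change 5.14, SE 0.30, adjusted p = 1.01e-08). The call of *Hottip* was lost without CB replicate 1, where the log2 fold change fell just under the limit. Against S9-SCA-1+ cells, *Hoxa13*, *Hottip* and *Evx1* were again higher in S9-JAG1+ LMPs (11.4% called, 4.91% in that direction), *Hoxa13* by 66.2-fold. The median over the members was 0.64 against CBs and 0.25 against S9-SCA-1+ cells, beside -0.05 and -0.01 over all genes. These 4 comparisons share the S9-JAG1+ libraries.

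Among the other populations, *Hoxa13* (log2 fold change 1.75, SE 0.24) and *Evx1* (2.38, SE 0.39) were higher in S9-Pahi LMPs than in OCPs, where 4.84% of genes were called and 1.36% in that direction. *Hoxa11* was higher there by 1.13 and passed the fold limit without OCP replicate 1 or without S9-Pahi replicate 2 (1.21). From OCPs to CBs, both *Sox9*-positive but a day apart in stage, 4 members were higher in CBs (7.77% called, 6.60% in that direction). *Hoxa13* was 29.3-fold, *Evx1* 3.58-fold and *Hoxa11* 2.62-fold higher in CBs, and *Hottip* was called as well. The median over the members was 0.29 between S9-Pahi LMPs and OCPs (-0.02 over all genes) and -0.33 between OCPs and CBs (0.02). Leaving out CB replicate 1 added *Hoxa4*, which was lower in CBs by 1.30.

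Between S9-Pahi LMPs and CBs 12.7% of genes were called. *Hoxa7* was among the 1.83% higher in S9-Pahi LMPs, and *Hoxa13* (8.73-fold) and *Hottip* were among the 10.8% higher in CBs. S9-SCA-1+ cells differed from OCPs (12.8% called) by lower *Hoxa4*, in a direction with 8.03% of genes, and by higher *Hoxa11* and *Evx1*, in a direction with 4.73%. From CBs they differed by lower *Hoxa13* and *Hottip* (19.4% called, 13.9% higher in CBs), *Hoxa13* by 19.5-fold. Between S9-Pahi LMPs and S9-SCA-1+ cells, where 5.58% of genes were higher in the LMPs and 4.96% in S9-SCA-1+ cells, edgeR called 0 members, while 4 had an unadjusted p under 0.05 and DESeq2 called 1, *Hottip*, which had 10 counts or fewer in each of these libraries. As *Hottip* entered the tests only through S9-JAG1+ LMPs and CBs, that call adds no support. Without S9-Pahi replicate 2 edgeR called *Hoxa13* (1.29). Medians over the members in these 4 comparisons, in the order given, were 0.21, -0.16, 0.18 and 0.42, beside -0.05, 0.03, 0.06 and -0.01 over all genes.

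Each library was left out in turn. OCP replicate 2 differed most from its own replicates. The chi-square of counts per degree of freedom was 76.3 against replicate 1 and 40.0 against replicate 3. In all other pairs of replicates it was 7.80 to 22.7. Fits without OCP replicate 2 and without S9-SCA-1+ replicate 3 are given above with *Hoxa4* and *Evx1*. Without S9-JAG1+ replicate 3, the library with the most tail bud transcripts, the log2 fold changes over S9-Pahi LMPs were 4.72 for *Hoxa13* and 4.47 for *Evx1*. Over CBs they were 1.64 for *Hoxa13*, 1.27 for *Hottip* and 5.05 for *Evx1*. The calls of these 3 genes were kept in each comparison with S9-JAG1+ LMPs. In the same LMPs, 5 of the 7 tail bud markers tested were called higher than in S9-Pahi LMPs, in a direction with 2.58% of all genes. Among them were *T* at 5.35, 10.3 and 23.8 CPM and *Cdx2* at 1.24, 1.68 and 3.81 CPM. *Cdx2* and *Nkx1-2* had 3 counts or fewer in every library of the other populations. They entered the tests through S9-JAG1+ LMPs, so their calls follow from the filter and add no support. *Cdx4* was at 0 in replicates 1 and 2 and at 3.05 CPM in replicate 3. The part of such cells in the levels of *Evx1* and *Hoxa13* was not tested. Without OCP replicate 1, S9-Pahi replicate 3 and S9-JAG1+ replicate 1 together, a choice made after the data were seen, *Hoxa13* was at 4.98 and *Evx1* at 4.80 between S9-JAG1+ and S9-Pahi LMPs. *Hoxa11* was then called too (1.26), and *Hoxa7* between S9-Pahi LMPs and CBs was not (1.19).

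Levels along the cluster were compared between genes as RPKM, CPM per kilobase of exon. In S9-JAG1+ LMPs *Hoxa11* was highest (135 ± 10.3 RPKM, SD, n = 3), followed by *Hoxa10* (104 ± 5.91) and *Hoxa13* (91.0 ± 16.6), of which *Hoxa10* and *Hoxa13* lay within their spread. In S9-Pahi LMPs the order was *Hoxa10* (83.5 ± 7.21), *Hoxa9* (68.7 ± 8.86) and *Hoxa11* (64.7 ± 12.3), of which *Hoxa9* and *Hoxa11* lay within their spread. In OCPs *Hoxa10* (62.1 ± 1.80) and *Hoxa9* (56.9 ± 8.60) lay within their spread and so did *Hoxa5* (34.8 ± 14.2) and *Hoxa11* (29.6 ± 3.36). CBs had *Hoxa10* first (102 ± 15.5) and *Hoxa13* at 26.8 ± 5.01, and S9-SCA-1+ cells had *Hoxa11* first (112 ± 8.69, n = 2) and *Hoxa13* last (1.37 ± 0.0206). *Hoxa4* or *Hoxa13* was the lowest of the 8 genes in each population.

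**Figure D3:**
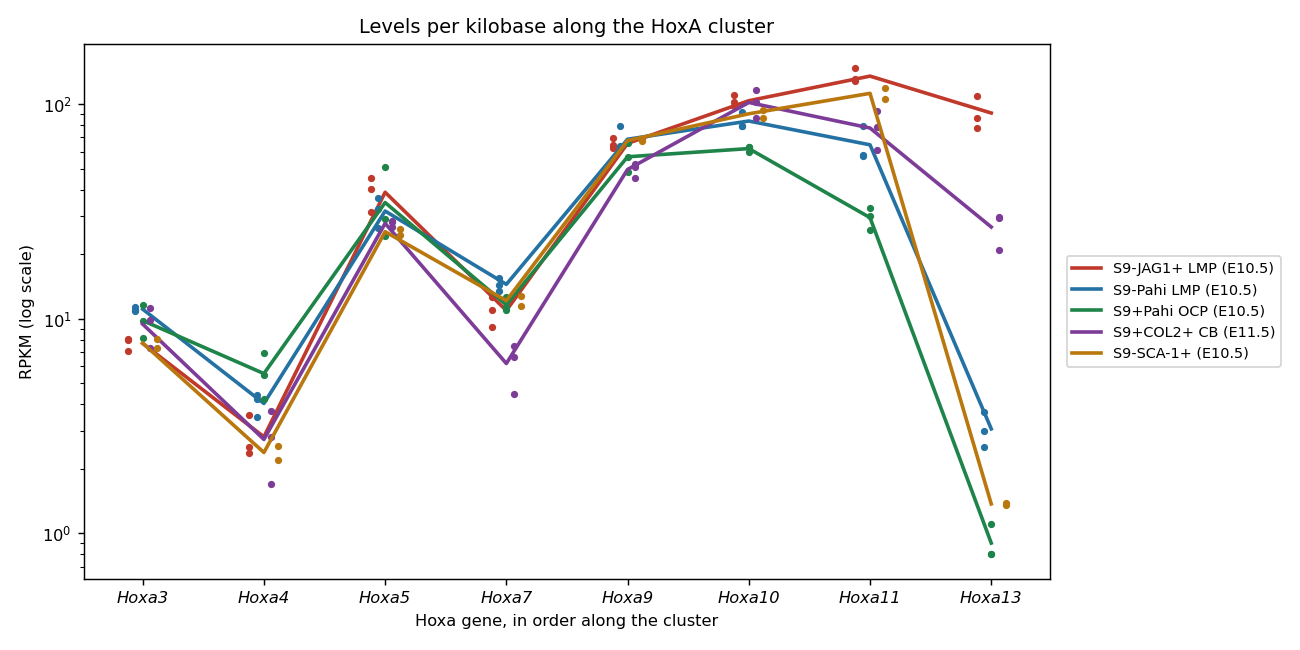
Mean RPKM (log axis) of the 8 *Hoxa* genes in their order along the cluster, 1 line for each population; points are libraries. The lines lie closer together from *Hoxa3* to *Hoxa10* than at the 5′ end and spread apart at *Hoxa11*, from 29.6 RPKM in OCPs to 135 in S9-JAG1+ LMPs, and at *Hoxa13*, from 0.900 to 91.0.

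The 5′ genes *Hoxa10*, *Hoxa11* and *Hoxa13* made up 72.4% ± 1.19 of the summed RPKM of the 8 genes in S9-JAG1+ LMPs, 68.0% ± 3.98 in CBs and 63.8% ± 1.64 in S9-SCA-1+ cells. In S9-Pahi LMPs they made up 53.7% ± 2.25 and in OCPs 44.2% ± 5.31. The S9-JAG1+ libraries (71.1 to 73.4%) overlapped with CBs (64.1 to 72.1%), and the OCP libraries lay below all others. *Hoxa13* alone gave 19.9% in S9-JAG1+ LMPs, 8.82% in CBs and 1.10% in S9-Pahi LMPs. It gave 0.433% in OCPs and 0.430% in S9-SCA-1+ cells, which therefore combined a high share of 5′ genes with little *Hoxa13*. The value rests on the lengths used: with coding length the shares were 63.9% in S9-JAG1+ LMPs and 57.4% in S9-SCA-1+ cells. The lengths given are also shorter than the exon bases of the GENCODE model for several genes. They are 1313 against 2472 bases for *Hoxa13*, 2543 against 6014 for *Hoxa3*, 3229 against 5580 for *Hoxa9* and 1951 against 2876 for *Hoxa7*. *Hoxa4* and *Hoxa10* fall short by less, and *Hoxa5* and *Hoxa11* do not.

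Ratios within the cluster were taken as descriptions and not tested. *Hoxa13* per 100 *Hoxa11* was 60.3, 58.7 and 83.8 in S9-JAG1+ LMPs and 34.2, 37.7 and 32.2 in CBs. It was 3.80 to 6.37 in S9-Pahi LMPs, 2.45 to 3.67 in OCPs and 1.17 and 1.28 in S9-SCA-1+ cells. No 2 populations overlapped, and S9-SCA-1+ cells, with the second highest *Hoxa11*, had the lowest ratio. *Evx1* per *Hoxa13* was 0.273 to 0.312 in S9-JAG1+ LMPs, 0.275 to 0.393 in S9-Pahi LMPs, 0.158 to 0.353 in OCPs and 0.342 to 0.612 in S9-SCA-1+ cells. In CBs it was 0.0245, 0.0222 and 0.0356, below every library of the other 4 populations. *Hottip* per 100 *Hoxa13* was 7.47 to 12.1 in S9-JAG1+ LMPs and 11.46 to 14.2 in CBs, where both genes had enough counts to compare.

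**Figure D4:**
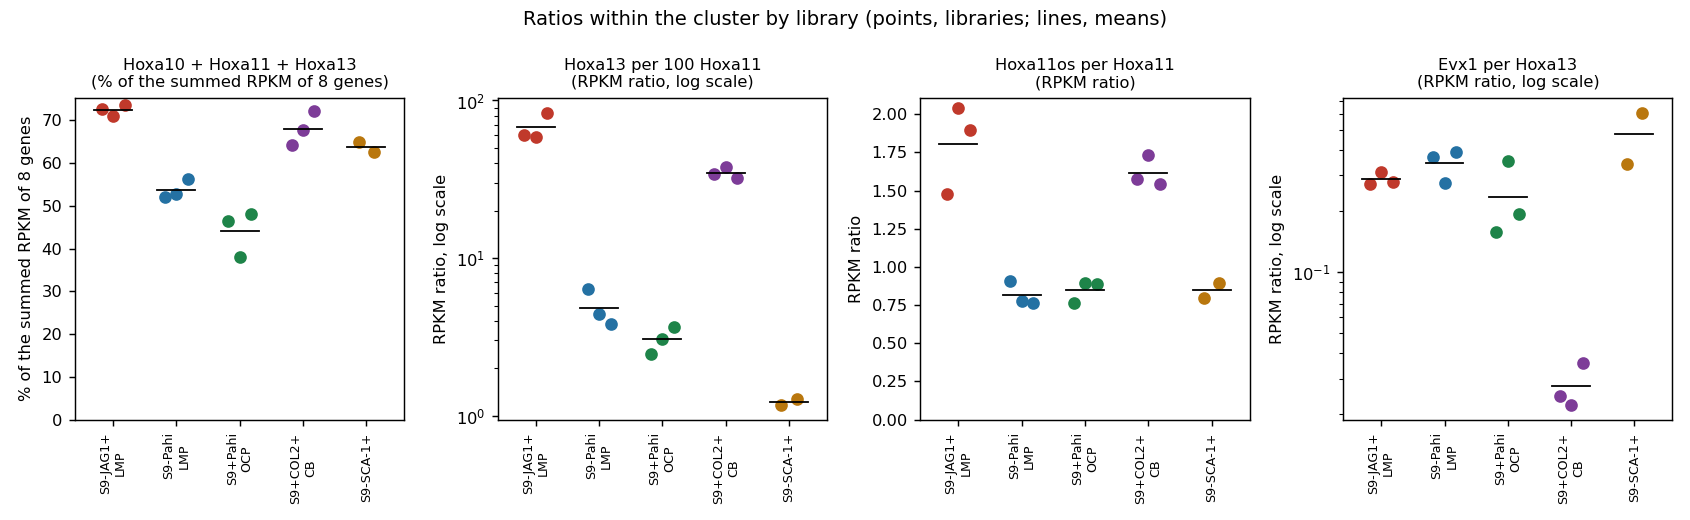
Share of the 3 most 5′ genes in the summed RPKM of the 8 *Hoxa* genes, and RPKM ratios of *Hoxa13* to *Hoxa11*, *Hoxa11os* to *Hoxa11* and *Evx1* to *Hoxa13*; points are libraries, lines are means, and the panels of *Hoxa13* per *Hoxa11* and *Evx1* per *Hoxa13* have a log axis. CBs sit near 34.7 *Hoxa13* per 100 *Hoxa11* but at 0.0274 *Evx1* per *Hoxa13*, against 0.287 in S9-JAG1+ LMPs.

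The other transcripts of the locus were examined as a list of 16 genes of the cluster and its flanks, 15 of them tested. *Hoxa11os*, antisense to *Hoxa11*, was at 348, 552 and 455 CPM in S9-JAG1+ LMPs, 178 to 264 in CBs, 174 and 175 in S9-SCA-1+ cells, 81.7 to 111 in S9-Pahi LMPs and 42.7 to 48.9 in OCPs. The antisense transcript per *Hoxa11*, as RPKM, was 1.48 to 2.04 in S9-JAG1+ LMPs and 1.55 to 1.73 in CBs, and 0.766 to 0.910 in the other 8 libraries. The 2 populations with the most *Hoxa13* thus also had more *Hoxa11os* for each *Hoxa11*, within the limit set by the overlapping reads. *Evx1os*, on the strand opposite *Evx1* and starting 1334 bases inside it, was at 31.9, 48.9 and 61.6 CPM in S9-JAG1+ LMPs and at 2.91 CPM or less in the other 11 libraries. *Jazf1*, a zinc finger gene beyond *Evx1*, averaged 11.6 CPM in S9-JAG1+ LMPs and 8.83 in CBs against 2.66 or less elsewhere. Of the list, 3 genes were called higher in S9-JAG1+ LMPs than in S9-Pahi LMPs (*Hoxa11os*, *Evx1os* and *Jazf1*) and none lower, with a median of 0.19. Over all genes 2.58% were called higher in this pair and 4.42% lower.

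Genes known to act on the cluster were read in the same way. Of 13 tested genes for signals and factors upstream of limb *Hox* genes, 3 were called higher in S9-JAG1+ than in S9-Pahi LMPs (2.58% of all genes). Another 3 were lower (4.42%), and the median was 0.05. The higher genes were *Shh*, *Cyp26b1* and *Cdx2*. As *Cdx2* entered the tests through S9-JAG1+ LMPs, its call follows from the filter and adds no support. *Shh*, the posterior limb bud signal, averaged 63.6 CPM in S9-JAG1+ LMPs, 16.04 in S9-Pahi LMPs and 0.219 or less in OCPs and CBs. *Cyp26b1*, which degrades retinoic acid, was higher by 1.79 (adjusted p = 1.58e-07). *Meis1* and *Meis2*, proximal limb bud factors, were lower by 2.61 and 2.70, as was *Rarb*, a retinoic acid receptor, by 2.46. *Meis1* averaged 133 CPM in OCPs and 36.1 in CBs, where the libraries spread from 12.25 to 55.1 CPM. It was called higher in OCPs than in CBs (log2 fold change 1.87, SE 0.42, adjusted p = 0.00532). *Meis1* averaged 26.6 CPM in S9-SCA-1+ cells and 13.0 CPM in S9-JAG1+ LMPs, which was not called (log2 fold change -1.03, SE 0.48, adjusted p = 0.136).

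Of 9 genes of the MLL complex that *Hottip* RNA binds, edgeR and DESeq2 called 0 between S9-JAG1+ and S9-Pahi LMPs, beside 7.00% of all genes by edgeR. In this pair 1 of the 9 had an unadjusted p under 0.05, with a median of 0.09. At an edgeR adjusted p of at most 0.1 and any fold, 1 of the 9 passed too, beside 4243 of 15125 genes. Between S9-JAG1+ LMPs and CBs both methods also called 0, beside 19.4% of all genes. Of the 9, 6 had an unadjusted p under 0.05, and the median was 0.39. These 6 stand beside 9966 of 15125 genes with an edgeR adjusted p of at most 0.1 at any fold, as had 6 of the 9. *Wdr5* averaged 167 CPM in S9-JAG1+ LMPs, 151 in S9-Pahi LMPs and 98.5 in CBs. Of 19 genes for polycomb proteins, which repress *Hox* clusters, and for the demethylases that oppose them, edgeR and DESeq2 called 0 between S9-JAG1+ and S9-Pahi LMPs (6 at an unadjusted p under 0.05) and 0 between S9-JAG1+ LMPs and OCPs (7). The edgeR shares over all genes were 7.00% and 12.5%. At an edgeR adjusted p of at most 0.1 and any fold, 5 and 7 of the 19 passed, beside 4243 and 7211 of 15125 genes. Against CBs 1 of the 19 was called, *Cbx7*, which was lower in S9-JAG1+ LMPs by 1.66, in a direction with 15.2% of all genes. The summed level of the 19 genes was 2117 to 2410.0 CPM over the 14 libraries.

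Of 5 genes reported as HOXA13 targets in the limb, among them *Hoxa11os* and *Aldh1a2* of the lists above, 1 was called higher in S9-JAG1+ than in S9-Pahi LMPs (*Hoxa11os*, in a direction with 2.58% of all genes) and 1 lower (*Epha7*, an ephrin receptor, log2 fold change -2.22, in a direction with 4.42%). From OCPs to CBs 3 were called higher in CBs, as were 6.60% of all genes, with *Bmp2*, a signal of the BMP family, at 2.71 and 34.8 CPM and *Aldh1a2*, which makes retinoic acid, at 7.41 and 98.8 CPM. In S9-JAG1+ LMPs *Aldh1a2* averaged 1.504 CPM and *Bmp2* 19.8 CPM.

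Genes whose log2 CPM ran most like a member over the 14 libraries were listed among 11883 genes by Pearson correlation, as a description with no test, since libraries of 1 population share their levels. For *Hoxa13* they were *Sall1* (0.979), *Nexmif* (0.975), *Tfap2b* (0.975), *Anxa5* (0.963) and *Mpzl1* (0.958). *Hottip* ran most like *Rrad* (0.980), *Lnpk* (0.974), *Tspan18* (0.973) and *Cxxc4* (0.972), with *Hoxa13* in the fifth place (0.968). *Evx1* ran most like *Lmo2* (0.987) and its neighbour *Evx1os* (0.986), then *Epha2* (0.976), *Naaa* (0.967) and *Socs2* (0.963). For *Hoxa11* the list held *Tnfrsf1a* (0.956), *Gcnt4* (0.944), *Hibadh* (0.940), *Ramp2* (0.930) and *Hoxa11os* (0.926), of which *Hibadh* lies beside the cluster. *Hoxa10* was closest to *Cerk* (0.931), *Inf2* (0.917) and *Rassf2* (0.917), followed by *Hoxa11os* (0.906) and *Hoxa11* (0.893). *Hoxa5* was closest to *Ankrd10* (0.980), *Phf21b* (0.954), *Brpf1* (0.942), *Atad5* (0.939) and *Cep83* (0.926), and no gene of the cluster was among its first 5.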

How the data were processed

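Poly(A)+ RNA of cells sorted by FACS from pooled mouse forelimb buds was sequenced in 14 libraries. The authors aligned single-end reads to mm10 with STAR, kept 1 position for reads fitting several, and deposited raw counts per RefSeq gene (qCount of QuasR); strand use was not given in the sources used here. Of 24454 identifiers, 24374 were matched to symbols, and the other 80 held 0.358% of counts. Genes were filtered with filterByExpr, scaled by TMM and fitted in R 4.3.3 with edgeR 4.0.16 (quasi-likelihood F test, all 14 libraries, a mean per population, Benjamini-Hochberg adjustment over 15125 genes). The SE is the log2 fold change divided by the square root of F. CPM use scaled totals, RPKM the lengths in the table, and log2 CPM a prior count of 2. The replicate variation was 13.4%, a coefficient of variation taken as the square root of edgeR's common dispersion. The named genes are the 10 members, fixed gene lists and the 5 genes most like each of 6 members. The members and lists were chosen with earlier results of these data known. Nothing used here says whether replicates came from separate litters, so p values measure the spread between these samples. Alternatives were other scaling, filters, thresholds, DESeq2 1.42.0, replicate numbers as a block, and libraries left out. The procedure was tested on simulated data.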

Additional observations from a re-analysis of the deposited data

How the results depend on the processing

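No member call changed direction under any alternative. The 27 calls of members kept their side of the threshold under DESeq2 size factors, the DESeq2 Wald test, both other filters, a fit of only the populations compared and an adjusted p of at most 0.05. With library totals in place of TMM, *Hoxa7* between S9-Pahi LMPs and CBs fell under the fold limit (1.11). Without any fold limit, members called rose to 7 (S9-JAG1+ against S9-Pahi), 7 (S9-JAG1+ against OCP), 8 (S9-JAG1+ against CB) and 4 (S9-Pahi against OCP). They also rose to 6 (S9-Pahi against CB), 4 (S9-Pahi against S9-SCA-1+), 7 (OCP against CB) and 5 (CB against S9-SCA-1+). In the same order, all genes called were 4243, 7211, 9966, 3042, 8495, 4606, 5263 and 9612 of the 15125 tested. For CBs against S9-JAG1+ LMPs, S9-Pahi LMPs and S9-SCA-1+ cells, 8, 6 and 5 of 10 members thus did not stand out from all genes. Nor did 4 of 10 for S9-Pahi LMPs against S9-SCA-1+ cells. Whether the other counts stood out was not tested. *Hoxa5* was gained between S9-JAG1+ LMPs and S9-SCA-1+ cells (4723 genes called) and *Hoxa10* between OCPs and S9-SCA-1+ cells (7087). Over the 10 pairs, all genes called numbered between 732 and 2941, and between 3042 and 9966 without a fold limit, the sole alternative to move them by over 1.5 times. Between S9-Pahi LMPs and S9-SCA-1+ cells, members called were 1 with DESeq2, 2 with the replicate block, 1 without the 3 libraries highest in hindlimb genes, and 0 to 1 with each library left out. The counts with DESeq2, with the block and without those 3 libraries each include *Hottip*, whose call here adds no support. Same-numbered libraries of 26 pairs correlated at -0.18 to 0.31 in their deviations, 4 of them over 0.1. The highest were S9-JAG1+ LMPs with OCPs (0.31 in replicate 1, 0.22 in replicate 2) and S9-Pahi LMPs with OCPs (0.29 in replicate 2). Libraries of different numbers were not correlated, so whether the replicate number pairs the samples was not settled. The replicate block also put *Hoxa4* between OCPs and S9-SCA-1+ cells just under the fold limit and changed no other call of the 27. The share of 5′ genes was 69.6% in S9-JAG1+ LMPs from counts without length. With coding length it was 63.9% there, 47.7% in S9-Pahi LMPs, 61.2% in CBs and 57.4% in S9-SCA-1+ cells. The cause of these changes was not tested beyond the construction of each alternative. *Hottip* had 10 counts or fewer in each library outside S9-JAG1+ LMPs and CBs, and S9-SCA-1+ cells had only 2 libraries.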
